A study of Mus musculus with 21 samples.

Results

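Ribosome biogenesis and nucleotide synthesis were followed through 34 genes in CD11b+ peritoneal macrophages. The genes are the transcription factor gene Myc, Polr1b of RNA polymerase I, 4 abundant nucleolar proteins, 5 proteins of small nucleolar ribonucleoproteins, 4 factors of small subunit assembly, 4 of large subunit assembly, 5 pyrimidine enzymes, 9 purine enzymes and Srm of polyamine synthesis. They were taken by gene symbol, with no measured level in the rule, but the list was chosen with earlier results of these data known. Each was found under a single gene ID, so all 34 are described, of 23570 genes in the table. Levels are in TPM, a length-corrected share of a library's transcripts. With a mean over all libraries of 1 TPM or more, all 34 were tested, among 11774 such genes.

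The libraries were made from C57BL/6 mice with 3 genotype labels, Lum-/- (6 libraries), Bgn-/- (6 libraries) and wild type (WT, 9 libraries). Lum and Bgn encode lumican and biglycan, matrix proteoglycans of the leucine-rich kind, and the growth protocol writes the Bgn label as -/0 or -/-. Cells came from unelicited peritoneal cavities (mice n = 10, with no note of pooling or age), were selected for CD11b and were kept in culture overnight. The stimuli, each for 6 h, were 100 ng/mL LPS, a ligand of TLR4, and 1 µM CpG DNA, a ligand of TLR9, and both were compared with no stimulus. Recombinant protein was given at 10 µg/mL, 1 h before LPS or CpG, and 4 libraries had protein alone, for which the protocol gives neither dose nor time. Lum-/- labelled cells received lumican or no protein, Bgn-/- labelled cells biglycan or no protein, and wild-type cells lumican, biglycan or no protein. Each of the 21 combinations has 1 library, so the 3 stimuli are matched within 7 genotype and protein combinations, and p-values rest on the spread between those combinations, not between animals.

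A growing cell makes ribosomes in the nucleolus, where RNA polymerase I copies ribosomal DNA and a large set of processing factors trims, modifies and folds the transcript around ribosomal proteins. Purine and pyrimidine synthesis supply the nucleotides for that RNA. MYC is a transcription factor known to raise genes of both processes, and it binds the sequence CACGTG with its partner MAX.

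Several libraries bear on all results. Lum was measured in all 6 libraries labelled Lum-/- (0.823 to 14.1 TPM, against 0 to 1.40 TPM in wild type), and Bgn in 5 of the 6 labelled Bgn-/- (0.758 to 3.49 TPM, against 0.327 to 1.52 TPM in wild type), so both targeted genes go against their knockout labels. A pair of libraries, untreated with the Lum-/- label and biglycan alone with the Bgn-/- label, listed 40241 and 40231 transcripts above 0, against 50990 to 59621 in the other 19, and held Arg1, an alternative activation gene, at 688 and 601 TPM. Their log2 levels differed with an SD of 0.214 over 2582 genes averaging 50 TPM or more, while each differed from any other library without stimulus by at least 0.545. The untreated wild-type library held the mast cell proteases Cma1 and Mcpt4 at 1.03 and 0.462 TPM, against at least 20.5 and 10.9 TPM in the other 8 wild-type libraries. Counts of the 34 genes without these 3 libraries are given for each comparison below, except the responses compared between genotype labels. Macrophage markers were measured in every library, from Mertk at 23.8 TPM or more to Lyz2 at 9666 TPM or more. Their change with the stimuli is given below.

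The summed level of the 34 genes was highest with CpG. As deposited, the summed level was 656, 823 and 902 TPM (lowest, median and highest of 7 libraries) with LPS, 1734, 2036 and 2206 TPM with CpG, and 1214, 1279 and 1414 TPM without stimulus. These 3 ranges did not overlap, and LPS was lowest. After median-of-ratios scaling, which brings the libraries to a common typical gene, the sums were 1060, 1180 and 1239 with LPS, 1543, 1652 and 1803 with CpG, and 955, 1065 and 1125 without stimulus. CpG was again above both, while the LPS range overlapped the range without stimulus and had the higher median of the pair. In a bulk library, fewer cells of a type and less RNA per cell cannot be told apart. Without stimulus, the highest median level per length was that of Npm1 (nucleophosmin, 390 TPM), followed by Ncl (nucleolin, 116 TPM), Paics (76.9 TPM) and Fbl (fibrillarin, 66.3 TPM). The lowest were Uck2 (1.09 TPM), Pfas (2.59 TPM), Ctps (3.45 TPM) and Rrp12 (3.46 TPM).

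**Figure D1:**
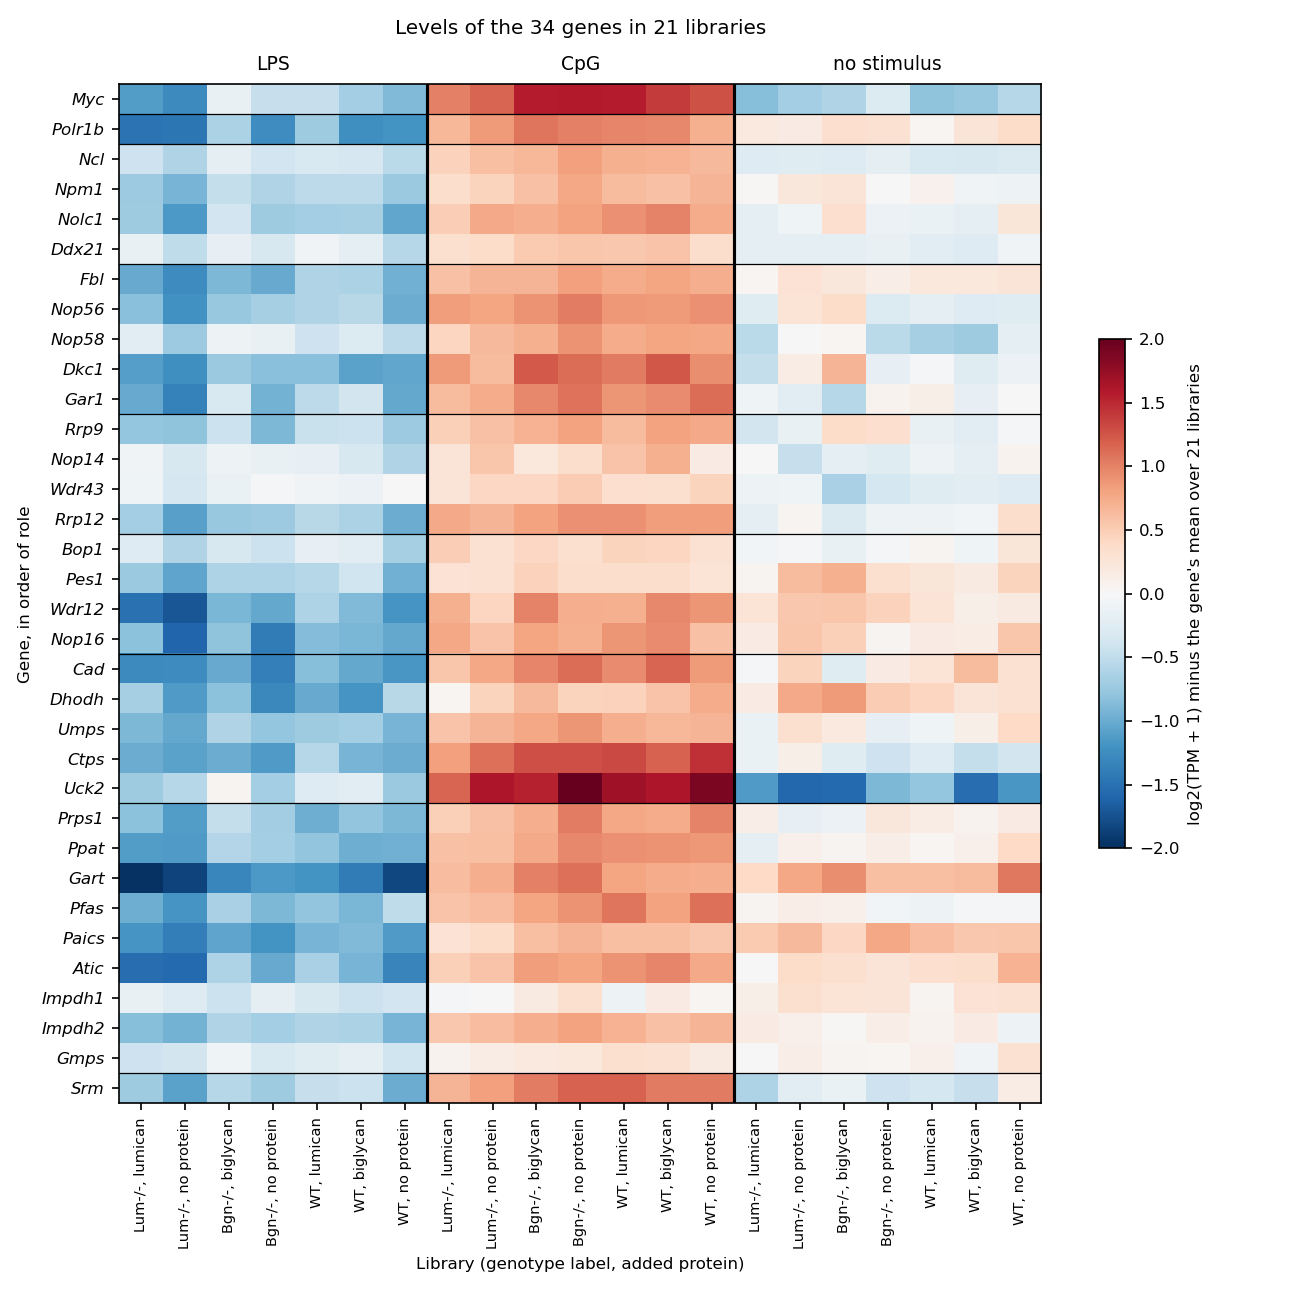
Level of each of the 34 genes (rows, ordered by role with lines between roles) in each of the 21 libraries (columns, grouped into LPS, CpG and no stimulus), as log2(TPM + 1) minus the gene's mean over all libraries, with red above and blue below that mean. All 34 genes were lower in each of the 7 LPS libraries than in each of the 7 CpG libraries as deposited, although after scaling 28 were called lower and 3 higher, and the Myc and Uck2 rows are darkest red with CpG.

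CpG raised most of these genes. Compared with no stimulus, 28 of the 34 rose and none fell (limma on log2(TPM + 1), adjusted p under 0.05), where 15.1% of all tested genes rose and 22.6% fell. The genes were chosen with earlier results of these data known, so these counts describe this list only. Impdh1 alone was lower at an unadjusted p under 0.05. The median difference was 0.66 on the log2 scale, against -0.05 for all tested genes. In 24 of the 34, all 7 CpG libraries lay above all 7 libraries without stimulus, a separation found in 4.93% of all tested genes. The opposite separation was found in none of them and in 7.51% of all tested genes. Scaling left the count at 28, and leaving out the 3 libraries gave 30 (16.1% of all genes then rose).

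Myc had 3.13, 5.22 and 7.98 TPM (lowest, median and highest) in the LPS libraries, 19.1, 25.3 and 29.1 TPM in the CpG libraries, and 4.55, 5.23 and 7.30 TPM without stimulus. The CpG libraries stood far above both others, which overlapped. The rise with CpG was 2.02 ± 0.10 on the log2 scale (SE, limma adjusted p = 6.01e-09), and it was seen in all 7 combinations, with single differences of 1.84 to 2.37. Mean TPM was 4.61 times that without stimulus. Myc lies on chr15:61985391-61990374, plus strand (GRCm38).

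Polr1b and all 4 abundant nucleolar protein genes rose with CpG. Polr1b, which encodes the second largest subunit of the polymerase, had 1.94, 2.48 and 4.23 TPM with LPS, 11.9, 14.9 and 16.1 TPM with CpG, and 7.37, 8.79 and 9.51 TPM without stimulus. These 3 ranges did not overlap, and the rise with CpG was 0.66 ± 0.10 (limma adjusted p = 0.000172). Nolc1, a chaperone of small nucleolar ribonucleoproteins, had 9.72, 13.5 and 17.3 TPM with LPS, 32.5, 39.2 and 46.1 TPM with CpG, and 19.9, 20.96 and 29.1 TPM without stimulus, again with no overlap. It rose with CpG by 0.79 ± 0.10. Ncl, a nucleolar RNA-binding protein, rose by 0.92 ± 0.06, Ddx21, a nucleolar RNA helicase, by 0.64 ± 0.07, and Npm1, a histone and ribosome chaperone, by 0.52 ± 0.08.

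The small nucleolar ribonucleoproteins, which modify ribosomal RNA, were the role with the highest median rise among those with several genes. All 5 rose with CpG, with a median of 1.03. Dkc1, the pseudouridine synthase dyskerin, had 6.99, 8.05 and 10.1 TPM with LPS, 27.8, 37.2 and 42.8 TPM with CpG, and 12.3, 16.2 and 28.9 TPM without stimulus. The LPS libraries lay below both other groups, and the highest library without stimulus reached into the CpG range. Dkc1 rose with CpG by 1.03 ± 0.11 (limma adjusted p = 4.45e-06). Its box H/ACA partner Gar1 rose by 1.04 ± 0.14, and the box C/D core genes Nop58 and Nop56 by 1.08 ± 0.12 and 0.96 ± 0.12. Fbl, the box C/D methyltransferase, rose by 0.52 ± 0.07.

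Subunit assembly factors had lower medians with CpG, 0.69 for the small and 0.41 for the large subunit. For the small subunit, all 4 rose with CpG: Rrp12, a late maturation factor, by 0.87 ± 0.10, the U3 protein gene Rrp9 by 0.71 ± 0.10, and the processome genes Wdr43 and Nop14 by 0.66 ± 0.08 and 0.56 ± 0.11. Rrp12 had 1.25, 1.86 and 2.24 TPM with LPS, 6.64, 7.47 and 7.98 TPM with CpG, and 2.89, 3.46 and 5.10 TPM without stimulus, with no overlap between the 3 groups. For the large subunit, Nop16, Wdr12 and Bop1 rose by 0.45 ± 0.12, 0.43 ± 0.13 and 0.40 ± 0.08. Wdr12 had 2.82, 5.14 and 7.15 TPM with LPS, 15.8, 19.7 and 23.7 TPM with CpG, and 12.5, 14.1 and 17.4 TPM without stimulus, with overlap between CpG and no stimulus and LPS below both. Its call with CpG was lost on coding transcripts alone (0.38). Bop1, Pes1 and Wdr12 encode the 3 proteins of the PeBoW complex. Pes1 differed by -0.03 ± 0.10 with CpG (limma adjusted p = 0.817), and its CpG libraries (46.9, 49.7 and 54.1 TPM) lay inside the range without stimulus (40.5, 49.0 and 64.4 TPM). The ratio of Wdr12 to Pes1 TPM was 0.150 to 0.276 with LPS, 0.330 to 0.470 with CpG, and 0.245 to 0.348 without stimulus. Pes1 was picked out after its values were seen.

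Pyrimidine synthesis held the largest CpG difference of the 34 genes, and 4 of its 5 genes rose. Uck2, the uridine-cytidine kinase of the salvage route, had 1.81, 2.15 and 3.85 TPM with LPS, 9.49, 13.3 and 20.9 TPM with CpG, and 0.571, 1.09 and 1.75 TPM without stimulus. No 2 of these groups overlapped, and mean TPM with CpG was 13.7 times that without stimulus. The rise with CpG was 2.91 ± 0.17 (limma adjusted p = 1.41e-08). Ctps, which turns UTP into CTP, rose by 1.46 ± 0.11, Cad, which carries the opening steps of the new synthesis route, by 0.69 ± 0.11, and Umps, which completes UMP, by 0.62 ± 0.10. Dhodh, the mitochondrial enzyme between Cad and Umps, differed by 0.01 ± 0.13 (limma adjusted p = 0.945). It was higher with CpG in 3 of the 7 combinations.

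Purine synthesis was divided under CpG. Of 9 genes, 5 rose: Pfas by 0.83 ± 0.10, Ppat, the committed step, by 0.71 ± 0.08, Prps1, which makes the ribose phosphate donor, by 0.70 ± 0.09, Impdh2 by 0.58 ± 0.06 and Atic, the last enzyme before IMP, by 0.43 ± 0.11. Gart, which carries several early steps, had 4.93, 7.78 and 9.53 TPM with LPS, 34.7, 37.9 and 48.7 TPM with CpG, and 29.7, 35.1 and 47.2 TPM without stimulus. The CpG libraries overlapped those without stimulus and the LPS libraries lay far below both. Its difference with CpG was 0.10 ± 0.11 (limma adjusted p = 0.493). Paics, which acts after Gart and Pfas, differed by -0.05 ± 0.07, with more TPM under CpG in 2 of the 7 combinations, and Gmps, which makes GMP, by 0.12 ± 0.07. Without the 3 libraries, Gart (0.30) and Gmps (0.20) were called higher, while Pes1, Dhodh, Paics and Impdh1 were still not called.

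The 2 IMP dehydrogenases, which commit IMP to GMP, were set side by side after their values were seen. Impdh1 had 21.5, 23.1 and 26.4 TPM with LPS, 27.3, 30.2 and 36.9 TPM with CpG, and 30.3, 35.6 and 36.8 TPM without stimulus. Impdh2 had 26.1, 31.3 and 33.1 TPM with LPS, 74.2, 81.7 and 89.5 TPM with CpG, and 47.4, 54.8 and 57.3 TPM without stimulus. The Impdh2 groups did not overlap, whereas Impdh1 with CpG overlapped the libraries without stimulus and differed from them by -0.15 ± 0.07 (limma adjusted p = 0.0894). The ratio of Impdh2 to Impdh1 TPM was 1.05 to 1.54 with LPS, 2.35 to 3.05 with CpG, and 1.31 to 1.804 without stimulus. Srm, the spermidine synthase, had 12.4, 16.3 and 19.99 TPM with LPS, 44.0, 56.8 and 63.0 TPM with CpG, and 17.3, 21.02 and 30.2 TPM without stimulus. All CpG libraries lay above both other groups, and Srm rose by 1.29 ± 0.12 (limma adjusted p = 1.29e-06).

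**Figure D2:**
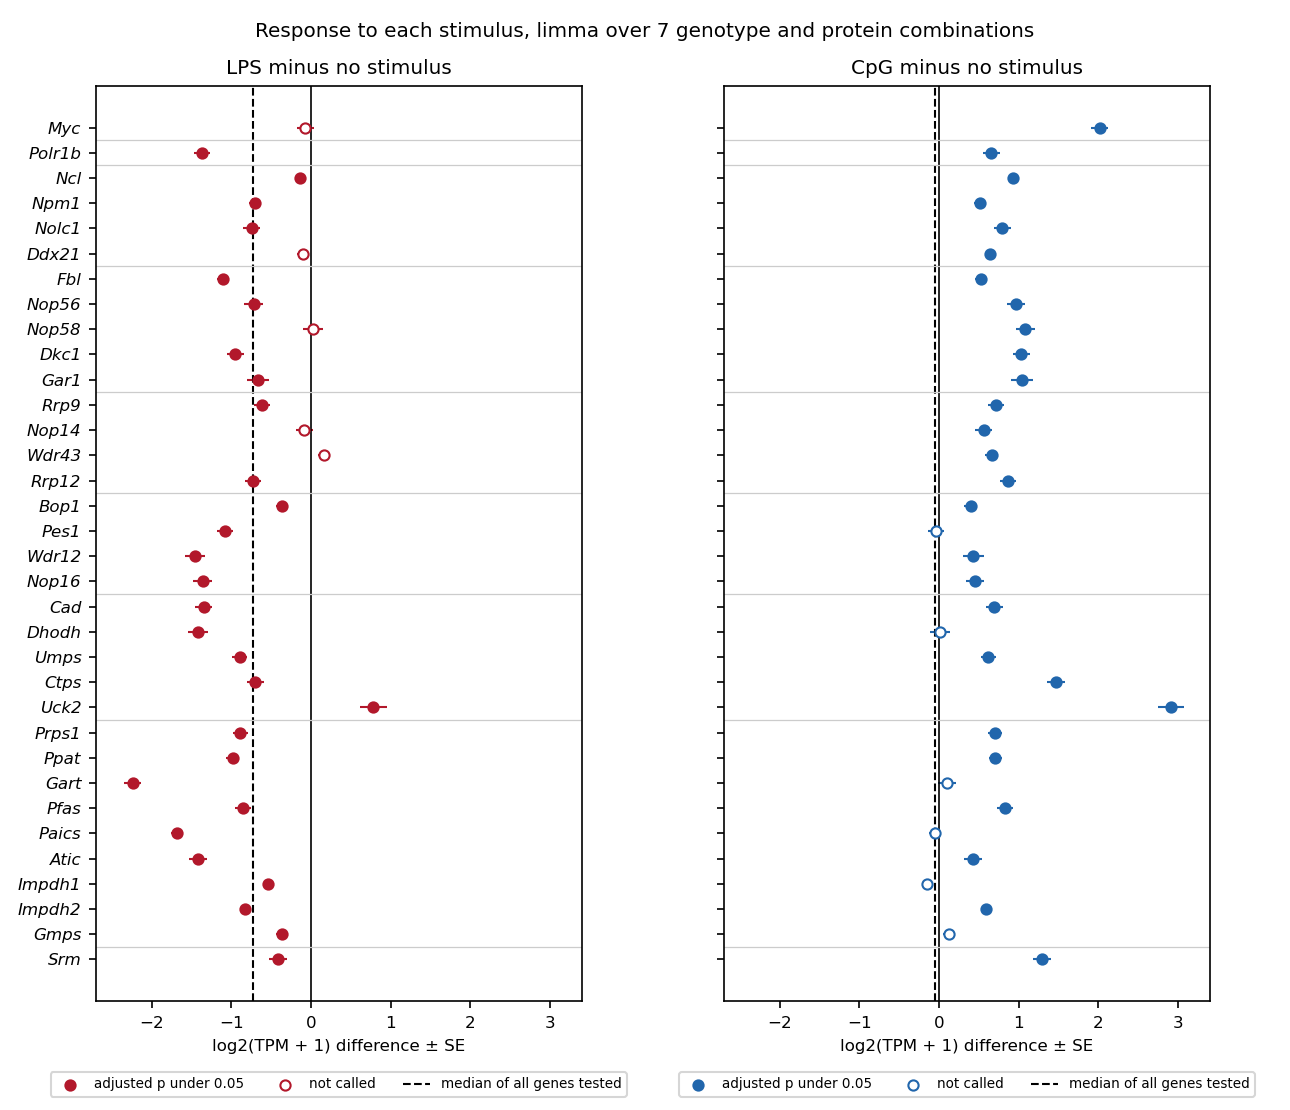
Difference of each stimulus from no stimulus on the log2(TPM + 1) scale (limma estimate ± SE over 7 genotype and protein combinations), LPS left and CpG right, with filled points for adjusted p under 0.05 and a dashed line at the median of all 11774 genes tested (-0.72 for LPS and -0.05 for CpG). With CpG, 28 of the 34 genes lie right of 0 and are filled. With LPS, 28 are filled and left of 0 as deposited, but after scaling 13 of the 34 were called lower and 11 higher.

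Promoter windows are printed for 5 genes that answered differently to CpG: Uck2 with the largest rise, the neighbours Ppat (rose) and Paics (not called), and Pes1 (not called) and Wdr43 (rose). Each runs 5′ to 3′ from 250 bases before to 50 bases after the annotated start, from RefSeq (GRCm38.p6), with any CACGTG in capitals:
Uck2, chr1:167285078-167285377, minus strand: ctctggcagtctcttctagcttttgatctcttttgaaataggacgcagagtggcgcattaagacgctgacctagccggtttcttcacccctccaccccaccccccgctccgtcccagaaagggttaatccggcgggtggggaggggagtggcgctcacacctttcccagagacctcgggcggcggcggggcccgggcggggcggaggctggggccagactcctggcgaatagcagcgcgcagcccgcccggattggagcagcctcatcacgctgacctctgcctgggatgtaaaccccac
Ppat, chr5:76951529-76951828, minus strand: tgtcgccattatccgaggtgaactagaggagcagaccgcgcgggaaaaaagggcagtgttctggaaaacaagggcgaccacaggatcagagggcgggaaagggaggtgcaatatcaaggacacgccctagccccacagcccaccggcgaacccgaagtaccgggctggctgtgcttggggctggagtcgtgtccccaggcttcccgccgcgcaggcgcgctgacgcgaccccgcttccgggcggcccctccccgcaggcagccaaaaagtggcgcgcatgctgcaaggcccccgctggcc
Paics, chr5:76951052-76951351, plus strand: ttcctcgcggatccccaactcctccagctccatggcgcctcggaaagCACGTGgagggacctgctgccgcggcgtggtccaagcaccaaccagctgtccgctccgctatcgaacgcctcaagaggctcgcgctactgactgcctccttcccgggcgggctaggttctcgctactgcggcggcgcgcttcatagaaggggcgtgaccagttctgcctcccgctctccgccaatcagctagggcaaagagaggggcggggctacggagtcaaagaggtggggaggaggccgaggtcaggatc
Pes1, chr11:3963725-3964024, plus strand: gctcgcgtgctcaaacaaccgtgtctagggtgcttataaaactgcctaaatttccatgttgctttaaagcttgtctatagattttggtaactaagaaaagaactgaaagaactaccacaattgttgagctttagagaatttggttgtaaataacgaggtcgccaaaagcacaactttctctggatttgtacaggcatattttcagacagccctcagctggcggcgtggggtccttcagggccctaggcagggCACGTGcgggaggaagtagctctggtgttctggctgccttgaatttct
Wdr43, chr17:71615965-71616264, plus strand: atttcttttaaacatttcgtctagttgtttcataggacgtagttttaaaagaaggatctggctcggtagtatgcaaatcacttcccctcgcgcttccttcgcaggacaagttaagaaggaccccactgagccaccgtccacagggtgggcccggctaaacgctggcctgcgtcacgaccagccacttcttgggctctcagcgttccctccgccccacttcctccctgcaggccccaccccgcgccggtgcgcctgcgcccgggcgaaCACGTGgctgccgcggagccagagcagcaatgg

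Windows were found for 26 of the 34 genes (30 windows), the others being Myc, Npm1, Fbl, Rrp12, Bop1, Dhodh, Pfas and Srm. CACGTG, which reads the same on both strands, occurred in the windows of 5 of the 26 genes (19.2%), against 8.09% of the 27025 genes with a window. The 5 were Atic (first base 7 bases before the start), Impdh2 (110 before), Paics (203 before), Pes1 (2 bases after) and Wdr43 (17 after). Of these, Paics and Pes1 were not called with CpG, and Uck2, with the largest rise, had no match, which says only that these letters are not in this window. The median GC content was 60.5% in the windows of these genes and 52.7% in all 32851 windows. Ppat (chr5:76913249-76951578, minus strand) and Paics (chr5:76951307-76967509, plus strand) overlap head to head over 272 bases. The library kit was stranded, but whether strand was used in the quantification is not given in the sources used here. The ratio of Paics to Ppat TPM was 6.91 to 11.4 with LPS, 6.71 to 7.69 with CpG, and 9.70 to 15.1 without stimulus.

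Under LPS the 34 genes lay on both sides of the typical gene. As deposited, 28 of the 34 were lower and 1 was higher than without stimulus (limma adjusted p under 0.05), but 72.3% of all tested genes were lower and 14.1% higher. The median difference was -0.74 for the 34 genes and -0.72 for all tested genes. The most abundant 10 genes took 24.6% to 27.3% of each LPS library, against 19.0% to 24.3% without stimulus, and their part in these differences was not tested. Scaling moved the median of all genes to 0.01 and that of the 34 genes to -0.06, and then 11 were higher and 13 lower, where 39.3% and 38.7% of all genes were higher and lower. LPS differences are given below as deposited and after scaling.

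As deposited, all 9 purine genes were lower with LPS, and of 5 pyrimidine genes 4 were lower and 1 higher, each role with a median of -0.89. After scaling, 5 purine genes were lower and 2 higher, and 3 pyrimidine genes lower and 1 higher. Gart had the largest fall, by 2.24 ± 0.11 as deposited (limma adjusted p = 1.76e-11) and by 1.46 after scaling, with mean TPM at 0.194 times that without stimulus. Paics fell by 1.69 ± 0.07 and 0.87, Atic by 1.42 ± 0.11 and 0.62, Ppat by 0.98 ± 0.08 and 0.32, and Pfas by 0.85 ± 0.10 and 0.34, each as deposited and scaled. Cad, Dhodh and Umps fell by 1.35 ± 0.11, 1.42 ± 0.13 and 0.89 ± 0.10 as deposited and by 0.68, 0.73 and 0.22 after scaling. For Prps1 (-0.17), Ctps (-0.11) and Impdh2 (-0.01), the scaled difference was not called. Impdh1 and Gmps turned round, with -0.54 and -0.37 as deposited and 0.28 and 0.38 after scaling, called each way. Uck2 was the 1 gene higher in both, by 0.78 ± 0.17 as deposited (limma adjusted p = 0.00034) and 1.32 scaled, with all 7 LPS libraries above all 7 without stimulus (8.6% of all tested genes). On its most abundant transcript alone the Uck2 difference was 0.47 and not called.

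Among the ribosome genes, medians with LPS as deposited were -0.35 for the small subunit, -0.42 for the abundant nucleolar proteins, -0.72 for the small nucleolar ribonucleoproteins and -1.22 for the large subunit. Ncl, Ddx21, Nop58, Nop14 and Wdr43 differed by -0.13, -0.10, 0.03, -0.09 and 0.16 as deposited, of which Ncl alone was called, and by 0.70, 0.72, 0.86, 0.72 and 0.98 after scaling, all called. Myc differed by -0.07 ± 0.10 as deposited (limma adjusted p = 0.522) and by 0.64 ± 0.09 after scaling (adjusted p = 8.18e-06). Fbl fell by 1.10 ± 0.07 as deposited and by 0.28 scaled, and Dkc1 by 0.95 ± 0.11 as deposited, with -0.17 scaled and no call. Nolc1, Npm1, Nop56, Gar1, Rrp9 and Rrp12 had -0.74, -0.70, -0.72, -0.67, -0.61 and -0.73 as deposited, all called, and 0.05, 0.14, 0.10, 0.13, 0.17 and -0.13 after scaling, none called. Large subunit factors fell except Bop1, which turned round: Wdr12 by 1.46 ± 0.13 as deposited and 0.72 scaled, Nop16 by 1.36 ± 0.12 and 0.59, and Pes1 by 1.08 ± 0.10 and 0.26, while Bop1 had -0.37 and 0.44. Polr1b fell by 1.37 ± 0.10 as deposited and by 0.69 scaled. Srm had -0.41 ± 0.12 as deposited and 0.39 scaled, both called.

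All 7 LPS libraries lay below all 7 libraries without stimulus in 25 of the 34 genes, against 58.1% of all tested genes. Without the 3 libraries, 26 genes were called lower and 2 higher, where 71.7% and 14.4% of all genes were. The added higher gene was Nop58 (0.31), and Ncl (-0.10) and Srm (-0.17) were no longer called.

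**Figure D3:**
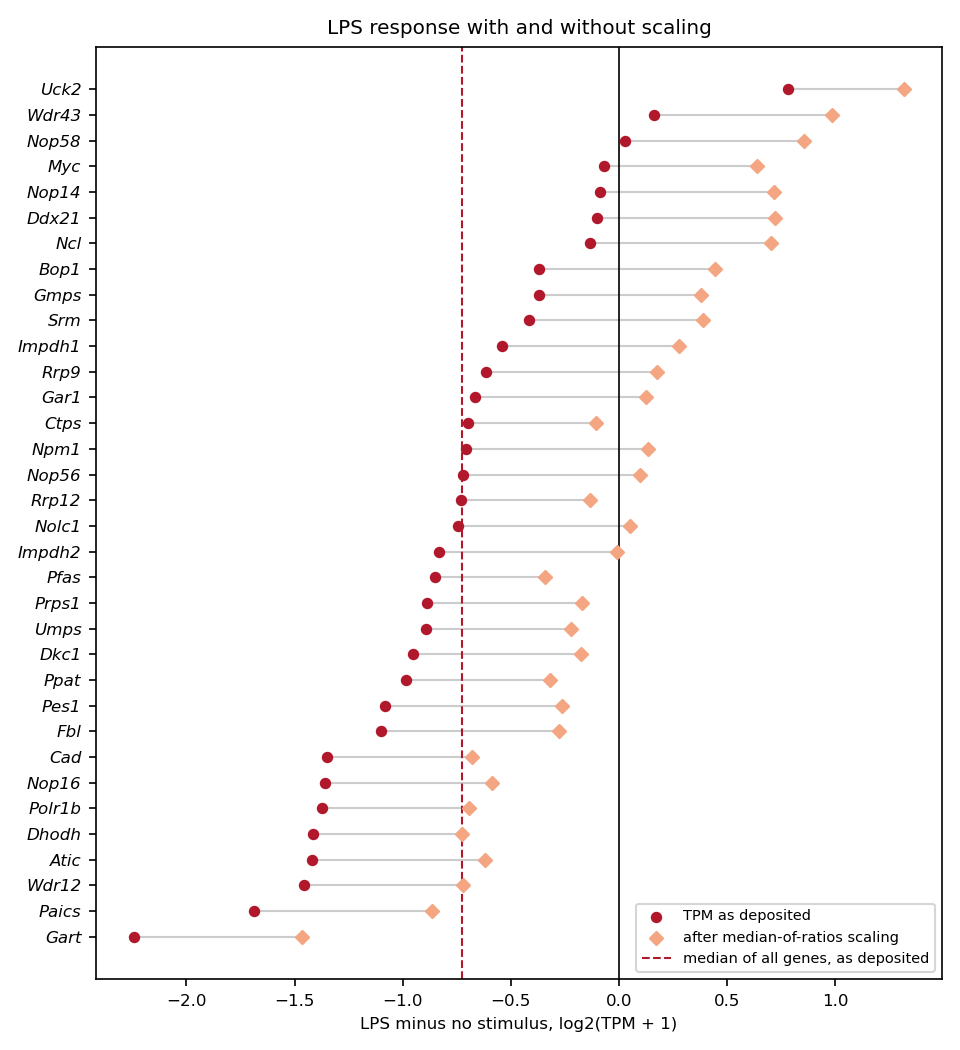
LPS minus no stimulus for each of the 34 genes on the log2(TPM + 1) scale, as deposited (circles) and after median-of-ratios scaling (diamonds), ordered by the deposited value, with a dashed line at the deposited median of all genes (-0.72). Gart is lowest and Uck2 highest in both; 13 genes that lie left of 0 as deposited lie right of it after scaling.

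As deposited, LPS and CpG libraries overlapped for none of the genes. All 34 genes were lower with LPS (limma adjusted p under 0.05), as were 74.1% of all tested genes, while 11.6% were higher, and in all 34 the 7 LPS libraries lay below the 7 CpG libraries (62.1% of all genes). The median difference was -1.61, against -0.70 for all genes. After scaling, 28 were lower and 3 higher, where 37.8% and 36.8% of all genes were, and the median was -0.88 against -0.01. Gart (-2.34 ± 0.11), Ctps (-2.16 ± 0.11), Uck2 (-2.12 ± 0.17), Myc (-2.09 ± 0.10), Cad (-2.04 ± 0.11) and Polr1b (-2.03 ± 0.10) had the largest differences, and these were -1.62, -1.57, -1.49, -1.38, -1.40 and -1.38 after scaling. The 3 genes that turned to higher with LPS after scaling were Impdh1 (0.38), Wdr43 (0.28) and Gmps (0.22). For Ddx21 (0.03), Nop14 (0.11) and Bop1 (0.00), the scaled difference was not called. Without the 3 libraries, all 34 were again lower. This comparison shares its libraries with both comparisons above.

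**Figure D4:**
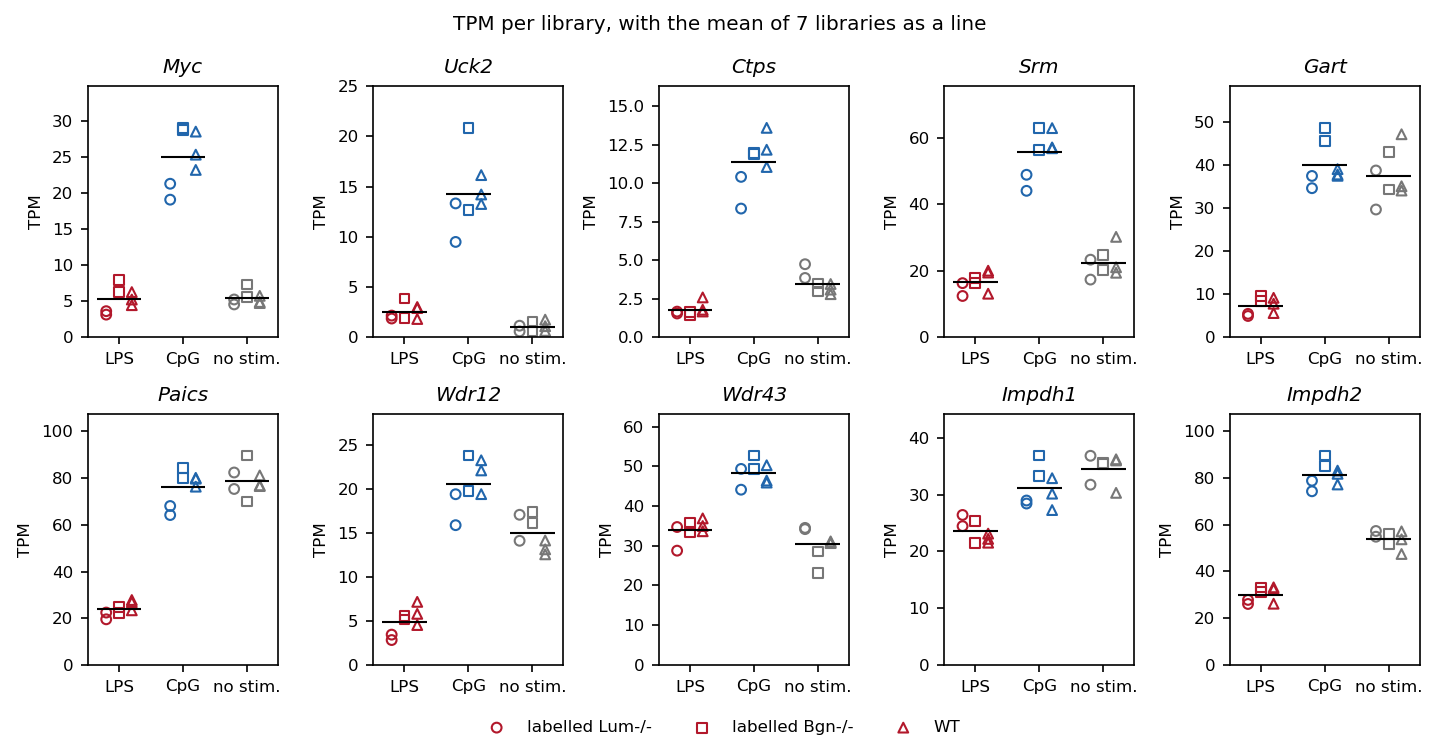
TPM of 10 of the genes in each library (one point each; circles for libraries labelled Lum-/-, squares for those labelled Bgn-/- and triangles for wild type), with LPS, CpG and no stimulus from left to right and the mean of 7 libraries as a line. CpG libraries stand above both others for Myc, Uck2, Ctps, Srm, Wdr43 and Impdh2, while for Gart and Paics they overlap the libraries without stimulus and the LPS libraries lie below.

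Further genes of the same pathways moved partly alike. Among 107 other ribosome assembly factors, 60 rose and 1 fell with CpG, with a median of 0.27, against 15.1% and 22.6% of all tested genes, among them Rcl1 (0.96), Lyar (0.85), Nop2 (0.82) and Nle1 (0.82). Leaving out the 3 libraries gave 74 that rose and 1 that fell. With LPS, 8 were higher and 94 lower as deposited (14.1% and 72.3% of all tested genes), and 43 and 23 after scaling (39.3% and 38.7%). Rcl1, a factor of small subunit processing, was higher with LPS by 2.06 ± 0.08. Of 19 RNA polymerase I subunits and initiation factors, 1 rose with CpG, the initiation factor gene Rrn3 (0.25 ± 0.07), and 1 fell, Polr2e (-0.25 ± 0.08), a subunit shared by all nuclear polymerases. After scaling, 4 rose and 1 fell (18.7% and 18.6% of all tested genes), and 2 rose and 2 fell without the 3 libraries. All 19 were lower with LPS as deposited, where 72.3% of all tested genes were, with Polr2e at -2.43 and Polr1a, the largest subunit, at -1.63, while 5 were higher and 7 lower after scaling.

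Of 40 nucleotide genes beyond the 34, 13 rose and 7 fell with CpG, where 15.1% and 22.6% of all tested genes did, including Dut (1.92 ± 0.12) and Tyms (1.24 ± 0.15), which act in thymidine nucleotide synthesis, and Upp1 (1.34 ± 0.28), the uridine phosphorylase. Adssl1, an adenylosuccinate synthase, fell by 0.68 ± 0.13. With LPS, 8 were higher and 28 lower as deposited (14.1% and 72.3% of all tested genes), and 14 and 17 after scaling, shares near those of all genes. Upp1 (4.85 ± 0.28), Cmpk2 (4.71 ± 0.30) and Pnp2 (2.35 ± 0.15) rose, and Adssl1 fell by 3.30 ± 0.13. Cmpk2 is an interferon-inducible nucleotide kinase of mitochondria.

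Serine and folate genes, which supply carbon units for purines, rose with CpG in 10 of 15, with a median of 0.69, and none fell (15.1% and 22.6% of all tested genes). Psat1 and Phgdh of serine synthesis rose by 1.66 ± 0.12 and 1.43 ± 0.18, and the mitochondrial folate genes Shmt2 and Mthfd2 by 1.42 ± 0.11 and 1.12 ± 0.12. With LPS, 7 were higher and 6 lower as deposited (14.1% and 72.3% of all tested genes), and 10 and 2 after scaling. Mthfd2 (1.74) and Psat1 (1.49) were higher, and the cytosolic Mthfd1 fell by 1.87.

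In the MYC network, 5 of 10 genes fell with CpG and none rose, where 22.6% and 15.1% of all tested genes did. The antagonist genes Mxd4 (-1.20 ± 0.13), Mxi1 (-1.05 ± 0.13), Mxd1 (-0.42 ± 0.14) and Mnt (-0.32 ± 0.09) were among them. After scaling, 3 of the 10 fell, and Mxd1 was not called, while 5 fell and 1 rose without the 3 libraries. With LPS, 2 were higher and 7 lower as deposited (14.1% and 72.3% of all tested genes), and 3 and 5 after scaling (39.3% and 38.7%). Mxd4, Mnt and Mxi1 fell by 3.29, 2.43 and 2.18, and Mxd1 rose by 1.14. Of 11 other polyamine genes, 2 rose with CpG, with Odc1, the ornithine decarboxylase, at 1.04 ± 0.10 and Dhps at 0.25, and 2 fell, Sat1 (-0.24, not called after scaling) and Oaz2 (-0.21), shares near those of all genes. Leaving out the 3 libraries gave 4 that rose and 2 that fell. With LPS, 3 were higher and 6 lower as deposited, and 7 and 4 after scaling, beside the shares of all genes given above. Odc1 was also higher with LPS, by 0.70 ± 0.10, and Paox and Sms fell by 2.82 and 1.57. The genes of these lists named for LPS kept their direction after scaling.

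Marker genes of other cells and of the cell cycle moved with the stimuli too. All 6 cycling markers rose with CpG, and their sum was 45.2 to 71.7 TPM with CpG against 18.4 to 27.1 TPM without stimulus, led by Mcm5 (1.67) and Rrm2 (1.65). With LPS the sum was 47.1 to 87.0 TPM, of which Mki67 held 52.3 TPM on average. B cells carry TLR9: the sum of 6 B cell markers was 87.8 to 169 TPM with CpG against 114 to 277 TPM without stimulus, with Pax5 higher by 1.10 and Cd79b, Ms4a1 and Cd79a lower by 0.59 to 1.24. The dendritic cell list reached 46.1 to 60.7 TPM with CpG against 10.1 to 24.5 TPM without stimulus, of which Ccr7 averaged 49.99 TPM. T and NK cell markers summed to at most 5.85 TPM with CpG and 18.8 TPM without stimulus, and eosinophil and mesothelial lists to at most 1.41 and 3 TPM in any library. Macrophage markers summed to 11480 to 15260 TPM with LPS, 32550 to 37390 TPM with CpG and 29520 to 43610 TPM without stimulus. As deposited, all 6 were lower with LPS and 3 with CpG (72.3% and 22.6% of all tested genes). After scaling, 3 were lower with each, and 2 higher with LPS. Large peritoneal macrophage markers summed to 697 to 1032, 828 to 1174 and 711 to 1233 TPM, of which Prg4 averaged 770, 810 and 690 TPM. Of these 5, 4 were lower with LPS and 3 with CpG as deposited, and none higher. After scaling, 3 were lower and 1 higher with each, where 38.7% and 18.6% of all genes were lower. Mast cell markers summed to 140 to 205, 5.79 to 123 and 4.98 to 91.3 TPM in the same order, with Hdc at 140 TPM on average with LPS. Neutrophil markers summed to 343 to 412, 215 to 269 and 239 to 402 TPM, while Elane was at 0 in 18 of 21 libraries and Ly6g in 17. The part of these cells in the rise of the 34 genes was not tested.

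The genotype labels gave small differences in the 34 genes. Against wild type, 1 of the 34 genes was lower in libraries labelled Lum-/- and none higher, where 3.69% and 1.64% of all tested genes were (limma, 6 matched treatments, adjusted p under 0.05). After scaling the counts were again 1 lower and none higher, where 2.31% and 2.12% of all genes were. The gene was Gar1, with 8.08 and 10.6 TPM with LPS in libraries labelled Lum-/-, against 10.5, 15.2 and 17.0 TPM in wild type, and 35.2 and 38.0 TPM with CpG against 42.0, 44.0 and 49.4 TPM. It was lower in 6 of 6 matched pairs, by 0.33 ± 0.06 (adjusted p = 0.0116), but on coding transcripts alone the difference was -0.20 and not called. Atic (-0.38 ± 0.10, adjusted p = 0.0518) and Myc (-0.31 ± 0.09, adjusted p = 0.0562) missed the threshold and were lower in 6 of 6 pairs as well. Over all 34 genes the median was -0.13, against -0.04 for all tested genes, and 9 (26.5%) had an unadjusted p under 0.05, against 2504 (21.3%) of all tested genes.

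The calls in libraries labelled Lum-/- grew when libraries that stand apart were left out. Without the 3, 8 genes were lower, where 8.48% of all genes were: Gar1 (-0.33), Atic (-0.41), Myc (-0.35), Srm (-0.29), Dkc1 (-0.28), Fbl (-0.24), Paics (-0.23) and Npm1 (-0.20). After scaling, 5 of these kept the call, Myc, Fbl, Gar1, Paics and Atic, where 5.18% of all genes were lower and 6.3% higher. With only the 14 libraries given LPS or CpG, 9 were lower, where 7.58% of all genes were, and Wdr12 (-0.47 ± 0.12) joined the same 8. Myc had 3.13 and 3.61 TPM with LPS in libraries labelled Lum-/- against 4.44, 5.22 and 6.26 TPM in wild type, and 19.1 and 21.3 TPM with CpG against 23.2, 25.3 and 28.5 TPM. Under both stimuli the groups did not overlap. Without stimulus they did, at 4.55 and 5.23 TPM in libraries labelled Lum-/- against 4.73, 4.88 and 5.74 TPM in wild type. So few libraries can separate by chance, and the share of all genes that did so was not counted. Genotype label and cell preparation cannot be told apart in this design. Of 6 mast cell markers tested, 3 were lower and none higher with each mutant label. The medians were -1.91 (Lum-/-) and -2.31 (Bgn-/-), where 3.69% and 0.127% of all tested genes were lower. The part of mast cells in the label differences was not tested.

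**Figure D5:**
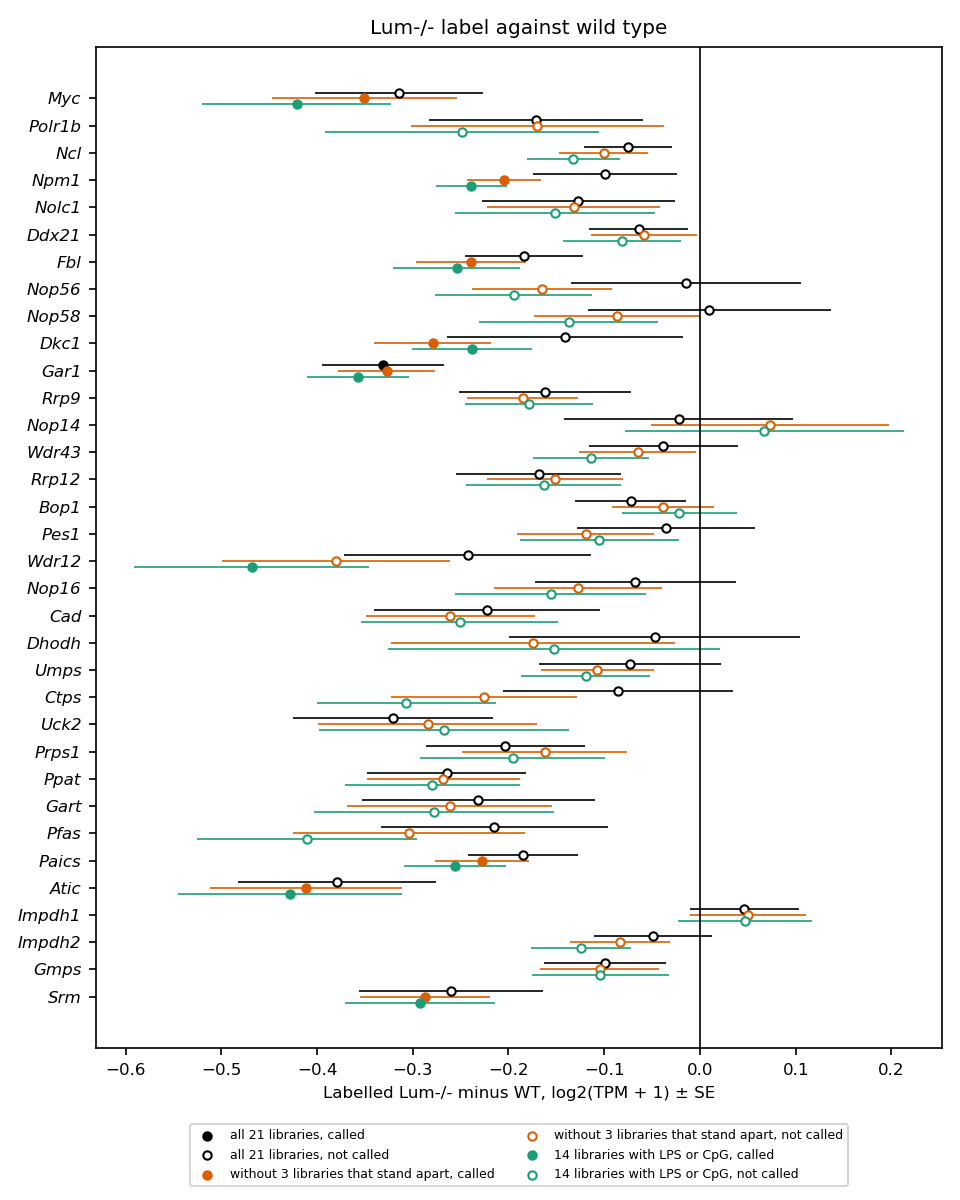
Labelled Lum-/- minus wild type for each of the 34 genes on the log2(TPM + 1) scale (limma estimate ± SE), over all 21 libraries (black), without the 3 libraries that stand apart (orange) and in the 14 libraries given LPS or CpG (green), with filled points for adjusted p under 0.05. Most points lie left of 0; 1 black, 8 orange and 9 green points are filled, and Impdh1 lies right of 0 in all 3.

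Libraries labelled Bgn-/- gave no call. None of the 34 genes was called higher or lower (0.0849% and 0.127% of all tested genes were, and 0.0934% and 0.178% after scaling), and differences ran between -0.23 and 0.29. When the 3 libraries were left out, 0 of the 34 were called and 183 of all tested genes (0.544% higher and 1.01% lower), against 25 with them. Myc was at the upper end with 0.29 ± 0.09 (unadjusted p = 0.00585, limma adjusted p = 0.385) and was higher in 6 of 6 matched pairs. With LPS it had 6.22 and 7.98 TPM in libraries labelled Bgn-/-, against 4.44, 5.22 and 6.26 TPM in wild type, and with CpG 28.7 and 29.1 TPM against 23.2, 25.3 and 28.5 TPM. The groups overlapped with LPS and not with CpG. Without stimulus they overlapped too, at 5.57 and 7.30 TPM in libraries labelled Bgn-/- against 4.73, 4.88 and 5.74 TPM in wild type.

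Added lumican or biglycan left the 34 genes without a call. Against no protein, 0 of 34 and 0% of all tested genes were called for either protein (limma), and none of the 34 had an unadjusted p under 0.05, against 1130 and 1037 of all 11774 genes. Differences ran from -0.11 to 0.16 with lumican and from -0.15 to 0.21 with biglycan, with standard errors of 0.06 to 0.18. Without the 3 libraries, 0 of the 34 were called for either protein, and 52 and 10 of all tested genes. A p that misses the threshold does not show that the proteins had no effect, and Nop16 with biglycan (0.21 ± 0.13) marks the largest estimate.

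Responses to LPS and CpG were compared between genotype labels by interaction contrasts. None of the 34 genes was called in any of the 4 contrasts, and 0% of all tested genes were (limma; 1239, 686, 656 and 703 genes had an unadjusted p under 0.05). After scaling, 0.017% of all tested genes were called higher for the LPS response in libraries labelled Lum-/-, and none of the 34. At an unadjusted p under 0.05 were 5 and 1 of the 34 for LPS and 4 and 2 for CpG, in libraries labelled Lum-/- and Bgn-/-. The lowest p was that of Wdr12, whose LPS response was 0.92 ± 0.21 more negative in libraries labelled Lum-/- than in wild type (limma unadjusted p = 0.000682, adjusted p = 0.278). Without the lumican-alone library labelled Lum-/- the Wdr12 estimate was -1.15. That fit keeps only the untreated library without stimulus under this label, which is 1 of the 3 that stand apart. Leaving out the untreated library labelled Bgn-/- likewise keeps only the biglycan-alone one, also among the 3. Without all 3, each mutant label again keeps 1 library without stimulus, so calls from these fits are not given. Wdr12 had 2.82 and 3.44 TPM with LPS and 14.1 and 17.0 TPM without stimulus in libraries labelled Lum-/-. Wild type had 4.52, 5.79 and 7.15 TPM with LPS and 12.5, 13.1 and 14.1 TPM without stimulus. Ctps had the lowest p for the CpG response, at -0.72 ± 0.22 in libraries labelled Lum-/- (unadjusted p = 0.00639, adjusted p = 0.859).

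Transcript classes limit what the sums show. Myc, Rrp12 and Gmps lay wholly on protein-coding transcripts, and Prps1 and Npm1 at 98.4% or more. Ncl lay at 11.3% on coding transcripts, with 85.6% of its TPM on a retained-intron transcript, and Wdr43, Gar1 and Dkc1 at 45.6%, 49.9% and 58.3%. The coding share of Nop56 was 70.2% to 87.2% with LPS, 69.8% to 76.7% with CpG, and 33.1% to 75.7% without stimulus. Summing coding transcripts alone gave 28 genes higher with CpG again, with Dhodh (0.51) added and Wdr12 lost, and 1 lower, Impdh1 (-0.23). Npm1 and other abundant nucleolar genes have pseudogene copies, so their split of reads is uncertain.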

How the data were processed

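RNA-seq libraries of 21 genotype, protein and stimulus combinations were used, 1 library each, so no replicate of a combination exists. The deposited values are TPM per transcript, made by the authors with kallisto 0.44.0 on GRCm38, per the submitters' processing notes; depth is unknown, since TPM keeps none. Of 89562 transcripts, 82788 carried a gene name, 5424 more were matched to GENCODE vM21 and 1350 were left out (5350.5 to 7548.3 TPM per library). TPM was summed per gene, and log2(TPM + 1), which understates changes of low genes, was fitted with limma 3.58.1 (R 4.3.3, trended variance, two-sided, Benjamini-Hochberg threshold 0.05) for 11774 genes averaging 1 TPM or more. Stimuli were fitted with 7 genotype and protein blocks, genotype labels with 9 treatments, and proteins and responses with 9 genotype and stimulus groups. The script was tested on simulated data. Sums were made with pandas 2.3.3 and numpy 2.4.6 under Python 3.11.15, and plots with matplotlib 3.10.9. Members and lists were chosen with earlier results of these data known. Full values were given for Myc, for the gene of each role with the largest stimulus difference and for genes called by genotype, and up to 4 genes per other list with a mean of at least 5 TPM. Alternatives were another pseudocount, filter, scaling, transcript choice, variance fit or design, and left-out libraries. Coding transcripts alone, scaling without 3 libraries and list counts without them were chosen after seeing the data.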

Additional observations from a re-analysis of the deposited data

Results flagged for a closer look

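Single libraries stood apart from the other 6 of their stimulus in 3 of 102 groups of 7 tested by Dixon's criterion, which chance flags in about 1 in 20 groups. Wdr43 with LPS was lowest in the no-protein library labelled Lum-/-, at 28.77 TPM, with the next at 33.46 TPM. Pes1 with CpG was highest in the biglycan library labelled Bgn-/-, at 54.1 TPM, with the next at 49.95 TPM. Ctps with LPS was highest in the wild-type lumican library, at 2.578 TPM, with the next at 1.777 TPM.

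For 2 genes every combination of one genotype label moved one way and every wild-type combination the other. So few combinations can split by chance, and the share of all tested genes that did so was not counted. Nop14 with LPS differed from no stimulus by 0.09897 on average in libraries labelled Bgn-/-, against -0.2934 in wild type. Dhodh with CpG differed by -0.2124 in libraries labelled Lum-/- and by -0.1266 in those labelled Bgn-/-, against 0.2583 in wild type. The interaction contrasts for these were 0.39 ± 0.24 (Nop14), -0.47 ± 0.33 (Dhodh, Lum-/-) and -0.38 ± 0.33 (Dhodh, Bgn-/-), with limma adjusted p of 0.878, 0.868 and 0.876.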

How the results depend on the processing

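The counts with CpG (28 higher) and for LPS against CpG (34 lower) ran from 28 to 29 and stayed at 34 when each library was left out in turn. The additive fit of genotype and 9 treatments gave 25 higher with CpG, losing Wdr12, Nop16 and Atic, and the most abundant transcript gave 32 lower for LPS against CpG, losing Npm1 and Impdh1. For LPS against no stimulus those ranges were 27 to 28 lower and 1 to 2 higher. Median-of-ratios scaling gave 11 higher and 13 lower for LPS against no stimulus, and 13 and 12 without the 3 libraries that stand apart. It gave 3 higher for LPS against CpG in both forms. Leaving out those 3 libraries, or using coding transcripts alone, gave 2 higher for LPS against no stimulus. The most abundant transcript, or coding transcripts alone, gave 1 lower with CpG.

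The count lower in libraries labelled Lum-/- was 1, where 3.69% of all tested genes were lower. It was 2 with a pseudocount of 5, 3 with a mean of at least 5 TPM or the most abundant transcript, and 4 with coding transcripts. Without the 2 libraries that agree it was 7. It was 8 without the 3 libraries (8.48% of all genes), and 5 with scaling as well (5.18%). With the LPS and CpG libraries alone it was 9 (7.58% of all genes). Leaving out each library in turn gave 1 to 6, with 6 without the untreated library labelled Lum-/- and 4 without the untreated one labelled Bgn-/-. Over the same fits, 219 to 825 of all 11774 genes were called in either direction. For the LPS response in libraries labelled Lum-/-, 0 of the 34 genes were called lower with all libraries kept. Leaving out either library without stimulus under this label keeps only 1, so calls from those fits are not given.

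Scaling changed the sign of LPS against no stimulus for Myc (0.64), Ncl (0.70), Npm1 (0.14), Nolc1 (0.052), Ddx21 (0.72), Nop56 (0.10), Gar1 (0.13), Rrp9 (0.17), Nop14 (0.72), Bop1 (0.44), Impdh1 (0.28), Gmps (0.38) and Srm (0.39). Of these, Npm1, Nolc1, Nop56, Gar1 and Rrp9 were not called after scaling. Scaling changed the sign of LPS against CpG for Ddx21 (0.033), Nop14 (0.11), Wdr43 (0.28), Bop1 (0.0030), Impdh1 (0.38) and Gmps (0.22), where Ddx21, Nop14 and Bop1 were not called. On the most abundant transcript, LPS against no stimulus changed sign for Npm1 (0.60) and Nop56 (0.020). The cause was not tested. Samples could not be paired by replicate number, because each combination has 1 library. Matching was instead by genotype, protein and stimulus, as in the fits reported.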
